A study of Mus musculus with 64 samples.

Results

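Potassium channel genes were read in 64 single cells sorted from the dentate gyrus, and 46 of the 96 gene symbols that start with Kcn and follow the family naming were detected in at least 6 cells. The 96 symbols cover pore-forming subunits (77 symbols), accessory subunits (16) and non-coding RNAs that carry a channel name (3). They were picked by name alone, and a gene counted as detected in a cell at 1 TPM (a level corrected for transcript length and expressed relative to a fixed library total) or more. The 46 genes comprised 39 pore-forming subunits, 6 accessory subunits and the non-coding RNA Kcnq1ot1. Another 24 symbols were detected in 1 to 5 cells, and 26 stayed below 1 TPM everywhere.

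Potassium channels let potassium leave the cell and so set the resting potential, shape and end action potentials and hold back repetitive firing. In dentate granule neurons the voltage-gated families act with calcium-activated, G protein-gated and leak channels, while astrocytes and oligodendrocytes use inward rectifiers to take up the potassium that neurons release. The pore is built from subunits of a gene family, often different ones in the same channel, and accessory subunits adjust gating and delivery to the membrane.

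All cells belong to the same group. They came from Dcx-dsRed mice aged 6 to 7 weeks, in which the doublecortin promoter, known for its activity in newborn neurons, drives a red fluorescent protein, and every cell was sorted as DCX-dsRed+. The labels name no animal, so the 64 cells stand for 1 biological sample, no test was made, and each difference below describes these cells. The study followed neuronal maturation during neurogenesis.

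The labels call every cell an immature neuron, and the markers go against that for most of them. Clustering without any Kcn gene gave 3 classes, which are neuron-like (20 cells), astrocyte-like (11) and myelin-rich (33). When each cell was instead put in the class of its highest marker score, the classes held 16, 19 and 29 cells, and 15 of the 20 neuron-like, 11 of the 11 astrocyte-like and 29 of the 33 myelin-rich cells kept their class. The summed level of 11 myelin markers was 17988 to 134285 TPM (median 37070) in the myelin-rich class, against medians of 130 TPM in the neuron-like and 716 TPM in the astrocyte-like class. The summed level of 10 pan-neuronal markers had medians of 5633 TPM in the neuron-like, 930 TPM in the astrocyte-like and 2315 TPM in the myelin-rich class, where single cells ranged from 54.5 to 7613 TPM. Dcx itself was detected in 6, 7 and 11 cells of these classes. A second cell type's programme was present in 3 neuron-like, 1 astrocyte-like and 14 myelin-rich libraries. Estimated depth ran from 449894 to 3957765 reads per cell (median 1050195), and only 1 astrocyte-like cell, cell 22, was among the 21 deeper libraries. A single read of a member of median transcript length (3392 bases) was worth 0.176 to 1.77 TPM, so a gene at 0 may have been missed.

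The 11 genes detected in at least 50% of the cells included neuronal and glial channels, and 35 genes were seen in 6 to 31 cells. Kcnq1ot1, an imprinted RNA transcribed antisense to Kcnq1, was detected in 64 of 64 cells at 1.46 to 91.0 TPM, while Kcnq1 itself was at 0 in every cell. Whether the counting used strand is not given in the sources used here. Kcna1, an axonal voltage-gated channel, was detected in 54 cells and the glial inward rectifier Kcnj10 in 49. The leak channel Kcnk1 followed with 46 cells, Kcna2, which joins Kcna1 in axonal channels, with 43, and the calcium- and voltage-activated channel Kcnma1 with 41. Kcnip3, a calcium-binding protein that binds Kv4 channels and also acts as a transcriptional repressor, was detected in 39 cells. Kcnd2, Kcnip2 and Kcnn2 were each detected in 38 cells.

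At the edge of the rule, Kcnk2, Kcnk3 and Kcnk10, all leak channels, were detected in exactly 6 cells. Kcne1l, Kcnj12, Kcnmb4os1 and Kcnn3 were detected in exactly 5 and fell just outside. In the families, 5 of 8 Kv1 genes, 4 of 4 Kv3 and 2 of 3 Kv4 genes passed. Also past the filter were 3 of 8 EAG, ERG and ELK genes, 4 of 10 silent subunits, 7 of 15 inward rectifiers, 5 of 14 leak channels, 3 of 4 large-conductance and Slo genes and 1 of 4 small-conductance genes. The Kv3 family was thus present with every member, and the leak family had the most members below 1 TPM in all cells (7).

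Of the 26 symbols below 1 TPM everywhere, 23 were at 0 in all 64 cells. They included the accessory genes Kcne1, Kcne2, Kcne3 and Kcne4, the cardiac and epithelial channel genes Kcnq1 and Kcnj1, the intermediate-conductance calcium-activated channel Kcnn4, and Kcnj8, a pore subunit of vascular ATP-sensitive channels. With 0 of 64 cells, a share of up to 4.69% remains possible (3 counts of the total), and the exact 95% upper limit is 5.60%. These limits cover counting error only.

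**Figure D1:**
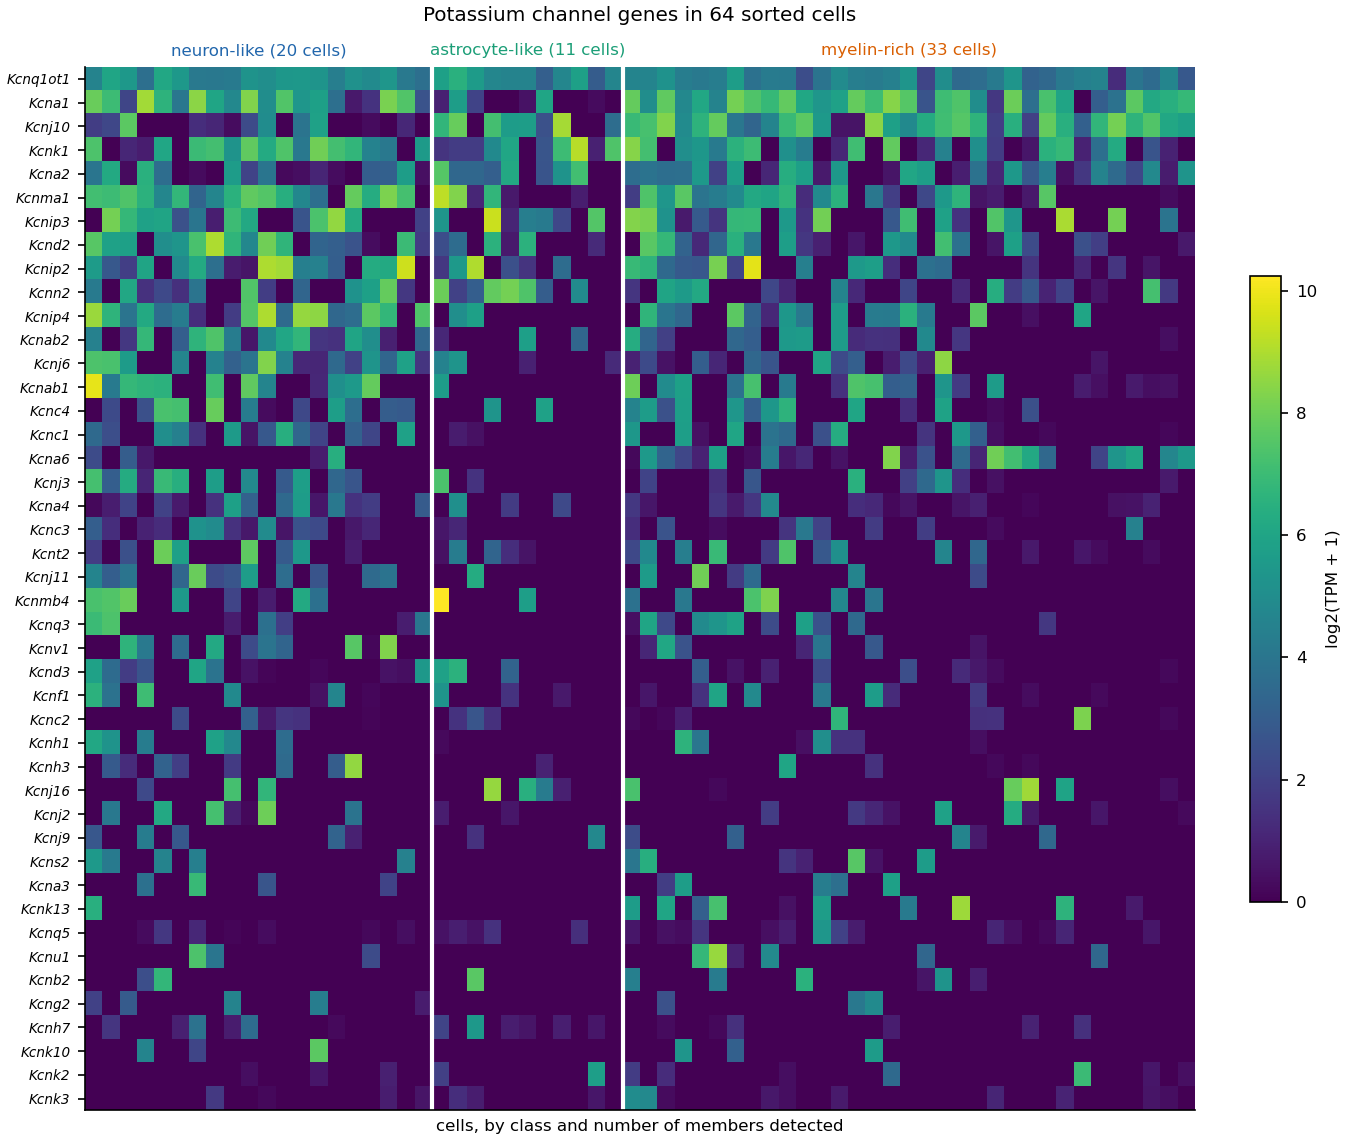
Level of 44 of the 46 potassium channel genes (rows, ordered by the number of cells that detected them) in each of the 64 cells (columns, grouped by class), as log2(TPM + 1) on the colour scale. Kcnq1ot1 fills every column, Kcna1 is dark in most astrocyte-like cells, Kcnj10 is dark in many neuron-like cells, and the lower rows are isolated cells.

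Neuron-like cells carried the broadest set of channel genes. They detected 12 to 30 of the 46 genes (median 21), myelin-rich cells 5 to 25 (median 15) and astrocyte-like cells 4 to 19 (median 9). The ranges overlap, and all genes together followed the same order in part, with medians of 5502, 5227 and 4473 genes detected. The summed level of the 46 genes was 359 to 3284 TPM (median 1336) in neuron-like, 191 to 1934 TPM (median 808) in myelin-rich and 188 to 2976 TPM (median 684) in astrocyte-like cells. In the neuron-like class 22 genes were detected in at least 50% of cells, in the myelin-rich class 11 and in the astrocyte-like class 7. Kcnk2 was the only one of the 46 that no neuron-like cell detected, 13 were detected in no astrocyte-like cell, and each was detected in some myelin-rich cell. The classes differ in size, and 11 astrocyte-like cells give a gene fewer chances to be seen than 33 myelin-rich ones. Beside the counts of genes detected in at least 50% of a class, or in none of its cells, no share of other genes is given. Those counts therefore cannot be read as particular to channel genes.

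A gene was called higher or lower in a class when the class mean of log2(TPM + 1) lay at least 1 unit above or below both other class means. By that rule 20 of the 46 genes were called, 4 of them in 2 ways, and 26 were not. Neuron-like cells had the higher mean for 13 of the 46 genes (28.3%), against 15.0% of 11071 other genes that passed the same filter of 6 cells. Astrocyte-like cells had the higher mean for 1 gene (2.17%, against 6.29% of other genes) and myelin-rich cells for 3 (6.52%, against 8.10%). Lower means were called for 1 gene in neuron-like cells (other genes 2.98%), for 5 in astrocyte-like cells (10.9%, against 16.0%) and for 1 in myelin-rich cells (other genes 2.33%). The filter can pass a gene through the class where it is high, for these genes and for the other genes alike, so the counts describe the genes that passed. Without regard to size, the neuron-like class had the highest of the 3 means for 32 of the 46 genes (69.6%) and for 45.7% of other genes.

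**Figure D2:**
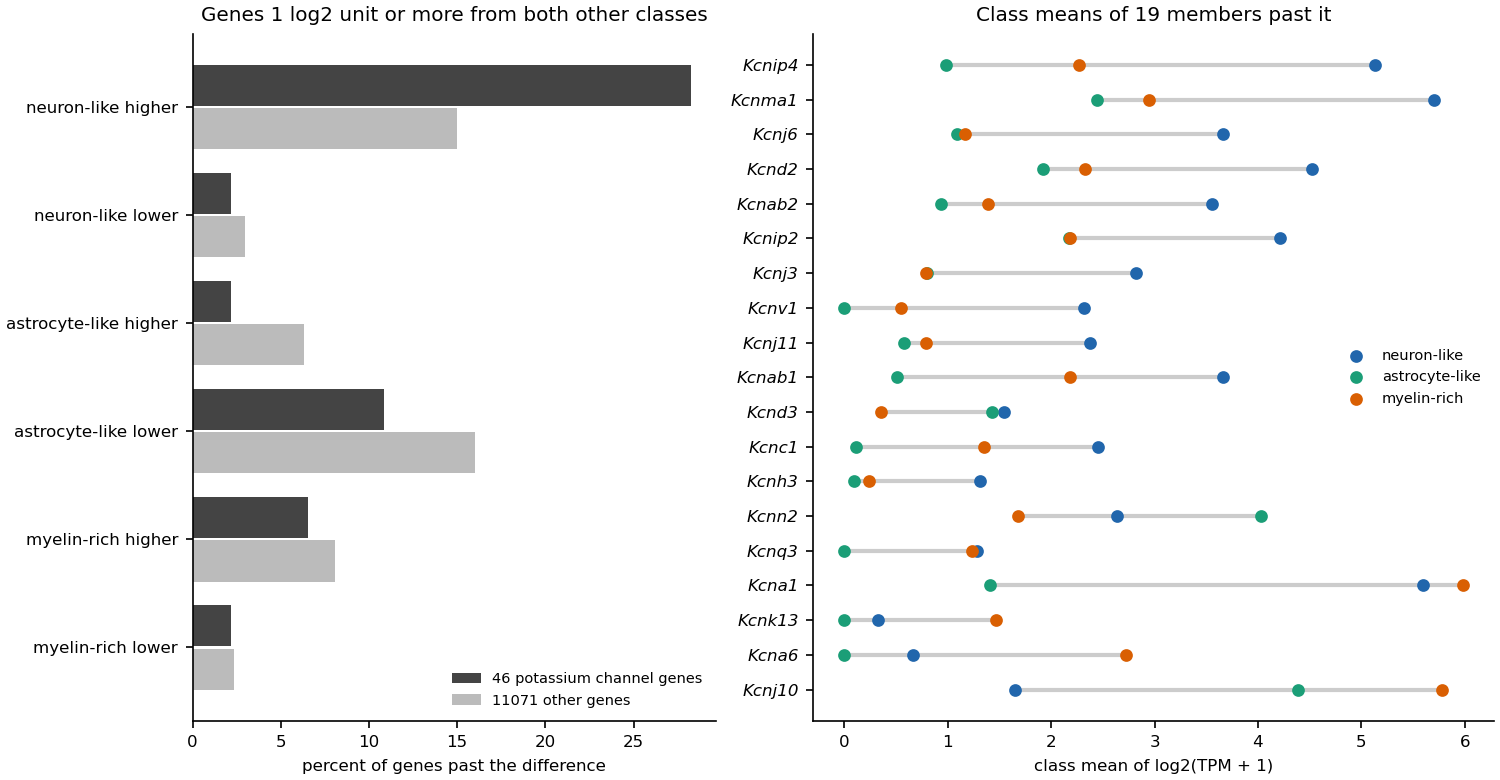
Left, percent of the 46 potassium channel genes (dark bars) and of 11071 other genes (light bars) whose class mean lay 1 log2 unit or more from both other classes, in each direction. Right, the class means of log2(TPM + 1) of 19 of the 20 genes past that difference, with neuron-like in blue, astrocyte-like in green and myelin-rich in orange. The neuron-like bar of the 46 genes (28.3%) is the longest, and the orange point lies farthest right for Kcnj10, Kcna6, Kcnk13 and Kcna1.

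The calcium-activated channel Kcnma1 had the highest median of any of the 46 genes in neuron-like cells. It was detected in 18 of 20 neuron-like cells at a median of 94.1 TPM (range 0 to 301), in 4 of 11 astrocyte-like cells at 0.61 TPM (0 to 600) and in 19 of 33 myelin-rich cells at 2.71 TPM (0 to 195). Most neuron-like cells lay above the middle of the other classes, yet the ranges overlap, and the highest level of all was in the astrocyte-like cell 22. The neuron-like mean of 5.70 ± 2.39 (SD over cells, log2(TPM + 1)) was 2.76 above the next class. Kcnmb4, the neuronal beta subunit of this channel, was detected in 7 neuron-like cells, all of which also detected Kcnma1, and was not called. With Kcnma1 in 18 of 20 neuron-like cells, that overlap was bound to be large and says nothing of a link. Kcnma1 was detected in 1 of the 2 astrocyte-like and 6 of the 6 myelin-rich cells with Kcnmb4.

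The A-type Kv4 channel, which opens below threshold and delays firing in dendrites, was represented by its pore gene Kcnd2 and its calcium-binding partners Kcnip2 and Kcnip4. Kcnip4 was detected in 18 of 20 neuron-like cells at a median of 46.2 TPM (0 to 502), in 2 of 11 astrocyte-like cells with a median of 0 (highest 55.9 TPM) and in 15 of 33 myelin-rich cells with a median of 0 (highest 203 TPM). Its neuron-like mean was 2.87 above the next class, the widest margin among the 13 genes, and its astrocyte-like mean was 1.28 below the next. Kcnd2 had medians of 36.2, 0.65 and 1.24 TPM in neuron-like, astrocyte-like and myelin-rich cells and was detected in 16, 5 and 17 of them. Kcnip2 had medians of 21.0, 1.92 and 1.11 TPM, but its highest level of 910 TPM was in a myelin-rich cell. So all 3 genes had higher means in neuron-like cells, with margins of 2.19 for Kcnd2 and 2.03 for Kcnip2, and none separated the classes cell by cell. Kcnd3, the other Kv4 gene that passed, had a myelin-rich mean 1.07 below the nearer of the other classes and was detected in 7 neuron-like, 3 astrocyte-like and 4 myelin-rich cells. Its myelin-rich levels did not exceed 7.37 TPM, against highest levels of 63.6 TPM in neuron-like and 94.6 TPM in astrocyte-like cells. That call ended without cell 8, 22, 56, 57, 61 or 67, when the classes came from 2000 genes or from marker scores, and in the deeper and in the shallower libraries taken alone.

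Detection of Kv4 pores and of their partners in the same cell was counted as well. Each of the 17 neuron-like cells with Kcnd2 or Kcnd3 also held a Kcnip transcript, as did 6 of 6 such astrocyte-like and 17 of 18 such myelin-rich cells. A Kcnip gene was detected in 20 of 20, 9 of 11 and 28 of 33 cells of the classes, so the overlap was fixed in neuron-like cells, was bound to be large in the others, and says nothing of a link between the genes. Within neuron-like cells, however, Kcnip2 and Kcnip3 had the most negative rank correlation of 231 pairs (Spearman rho -0.66 over 20 cells that share their preparation), a description among many pairs. The pairs and complexes described here were chosen with the values known.

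Of the 7 inward rectifiers that passed the filter, 3 had higher means in neuron-like cells and 1, Kcnj10, in myelin-rich cells, while Kcnj2, Kcnj9 and Kcnj16 were not called (15.0% and 8.10% of other genes were called in these directions). Kcnj6 and Kcnj3, whose products form the G protein-gated channel that transmitters open to quiet neurons, and Kcnj11, the pore of ATP-sensitive channels, were the 3 genes. Kcnj6 was detected in 17 of 20 neuron-like cells at a median of 12.3 TPM (0 to 315), against 3 of 11 astrocyte-like cells (highest 38.0 TPM) and 10 of 33 myelin-rich cells (highest 365 TPM), both with a median of 0. Kcnj3 was detected in 12, 2 and 8 cells of the 3 classes and Kcnj11 in 12, 1 and 6. The margins were 2.50 for Kcnj6, 2.02 for Kcnj3 and 1.59 for Kcnj11. Kcnj3 and Kcnj6 were detected together in 10 neuron-like, 1 astrocyte-like and 6 myelin-rich cells. With Kcnj6 in 17 of 20 neuron-like cells, the overlap in that class was bound to be large and says nothing of a link. Kcnj11 met Abcc8, the regulatory subunit of the ATP-sensitive channel, in 6 of its 12 neuron-like cells.

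Higher neuron-like means were also found for 2 accessory subunits of Kv1 channels and for several voltage-gated pore or silent subunits. Kcnab2 had a median of 14.1 TPM in neuron-like cells and 0 in both other classes, detected in 15, 3 and 13 cells. Kcnab1 had a median of 20.3 TPM in neuron-like cells, detected in 12 of them, against 1 astrocyte-like and 14 myelin-rich cells. Both encode beta subunits that attach to the inner side of Kv1 pores. The margins above the next class were 2.17 for Kcnab2 and 1.48 for Kcnab1.

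Kcnv1, a silent subunit that acts only inside other channels, had a margin of 1.77 and was detected in 9, 0 and 6 cells. Kcnc1, a fast Kv3 channel, had a margin of 1.09 and was detected in 13, 0 and 10 cells. Kcnh3, an ELK channel of forebrain neurons, had a margin of 1.07 and was detected in 8, 0 and 2 cells. The last of these rested on few cells, since cell 77 held 78.3% of the Kcnh3 level summed over all cells. The Kcnc1 call ended without cell 3, 48, 54, 63 or 75 and the Kcnh3 call without cell 9, 55, 63, 75 or 77, while the other 11 held whichever cell was left out. Among the 21 deeper libraries, where cell 22 stands alone for the astrocyte-like class, 7 of the 13 passed. There the neuron-like margins of Kcnma1, Kcnj3 and Kcnab1 were below 0, and Kcnj6, Kcnh3 and Kcnv1 did not pass either. Among the 43 shallower libraries 11 passed, without Kcnab1 and Kcnc1. With a pseudocount of 10 in place of 1, 6 of the 13 passed. With classes from marker scores 12 of the 13 passed, without Kcnip2, and with 2000 genes 11, without Kcnc1 and Kcnh3.

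The axonal Kv1 gene Kcna1 was high in neuron-like and myelin-rich cells alike and low in astrocyte-like cells. It was detected in 19 of 20 neuron-like cells at a median of 60.0 TPM (0.64 to 451) and in 32 of 33 myelin-rich cells at 87.0 TPM (0 to 336), but in 3 of 11 astrocyte-like cells at 0.22 TPM (0 to 64.1). The astrocyte-like mean of 1.41 ± 2.29 lay 4.19 below the next class, the widest margin of any of the 46 genes. Among the 19 myelin-rich cells without a second programme 18 detected Kcna1, at a median of 87.0 TPM, and the class mean was 5.58 there against 5.98 over all myelin-rich cells. The 10 cells with the neuronal programme had a median of 132 TPM and the 23 others 71.3 TPM, and the part of neuronal RNA in the myelin-rich level was not tested. Kcnab1, Kcnip4, Kcnc1 and Kcnq3, a subunit of the M-type channel, were the other genes with lower astrocyte-like means. Kcnq3 was detected in 5 neuron-like, 0 astrocyte-like and 10 myelin-rich cells. The Kcnq3 call ended without cell 8 or 55, and with a pseudocount of 10 Kcna1 alone of the 5 genes passed. With classes from marker scores Kcnc1 and Kcnip4 did not pass as lower in astrocyte-like cells. In the deeper libraries Kcnab1, Kcnc1 and Kcnq3 did not pass, with the Kcnab1 margin at -3.01, and Kcna1 and Kcnip4 did.

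Kcna6, another Kv1 gene, was largely found in myelin-rich cells. It was detected in 19 of 33 of them at a median of 3.25 TPM (0 to 317), in 3 of 20 neuron-like cells (highest 85.8 TPM) and in 0 of 11 astrocyte-like cells, where it was at 0 throughout. All 19 of those cells, and the 3 neuron-like ones, also detected Kcna1. Since 32 of 33 myelin-rich and 19 of 20 neuron-like cells detected Kcna1, that overlap was bound to be large. It says nothing of a link between the genes, which lie next to each other on chromosome 6. The myelin-rich mean of Kcna6 was 2.06 above the next class. Within the class it was detected in 16 of the 23 cells without the neuronal programme and in 3 of the 10 cells with it, and the mean was lower by 1.38 log2 units in the latter.

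Kcnj10, the inward rectifier through which astrocytes and oligodendrocytes take up potassium, was a glial gene here. It was detected in 31 of 33 myelin-rich cells at a median of 87.4 TPM (0.45 to 358), in 8 of 11 astrocyte-like cells at 49.5 TPM (0 to 472) and in 10 of 20 neuron-like cells at 0.71 TPM (0 to 205). The neuron-like mean of 1.65 ± 2.26 lay 2.73 below the next class. The myelin-rich mean was 1.39 above the astrocyte-like one, but both glial ranges overlap, the highest cell was astrocyte-like, and the margin was 0.47 without the libraries that hold a second programme and below 1 when cell 47, 68 or 79, astrocyte-like cells at 0, was left out or the classes came from 2000 genes. Neuron-like cells held astrocyte markers at 179 to 13130 TPM (median 1833) and myelin markers at 0.86 to 6330 TPM, and the part of these in their Kcnj10 level was not tested. Kcnj16, its partner in a common glial channel, was detected with it in 1 neuron-like, 3 astrocyte-like and 4 myelin-rich cells. With Kcnj10 in 31 of 33 myelin-rich cells, the overlap in that class was bound to be large.

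Kcnk13, a leak channel best known from microglia, was detected in 8 of 33 myelin-rich cells (highest 434 TPM in cell 83), in 1 of 20 neuron-like cells at 86.9 TPM and in 0 of 11 astrocyte-like cells. The myelin-rich mean was 1.15 above the next class and was below 1 when cell 15, 73 or 83 was left out, and with classes from 2000 genes or marker scores. With a pseudocount of 10, none of Kcnk13, Kcna6 and Kcnj10 passed, and in the deeper libraries taken alone Kcna6 passed while Kcnk13 and Kcnj10, the latter with a margin of -0.84, did not. Of 9 microglial markers, Aif1, Cx3cr1, Csf1r, Tmem119, C1qa, C1qb and Ctss were detected in 0 of 64 cells, and the list's summed level in myelin-rich cells was 0 to 307 TPM with a median of 0.

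Kcnn2, the small-conductance calcium-activated channel behind part of the afterhyperpolarisation, was the only gene with a higher astrocyte-like mean. It was detected in 8 of 11 astrocyte-like cells at a median of 7.35 TPM (0 to 276), in 13 of 20 neuron-like cells at 2.40 TPM (0 to 229) and in 17 of 33 myelin-rich cells at 1.01 TPM (0 to 150). The ranges overlap almost fully, the margin was 1.39, and it was below 1 without cell 57, with a pseudocount of 10 and with classes from marker scores. Astrocyte-like cells detected the gene beside pan-neuronal markers at 17.1 to 5130 TPM, whose part in the level was not tested.

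**Figure D3:**
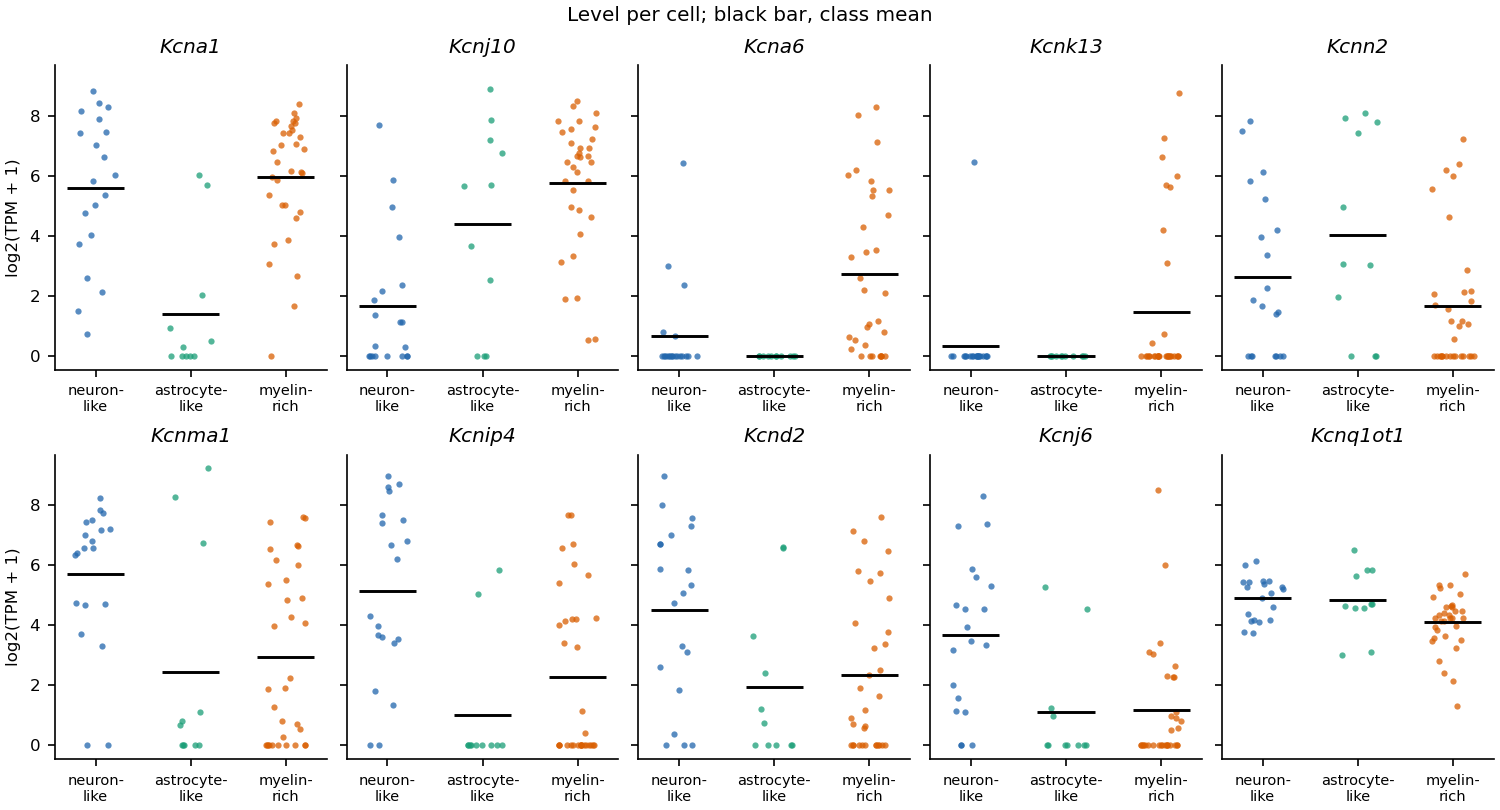
Level of 10 potassium channel genes in each cell (points) by class, as log2(TPM + 1), with the class mean as a black bar and horizontal scatter for legibility only. Kcna1 is low in astrocyte-like cells, Kcnj10 in neuron-like cells, Kcna6 and Kcnk13 are at 0 in astrocyte-like cells, and Kcnq1ot1 is above 0 in every cell.

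Upstream sequences are shown for the genes with higher myelin-rich means and for Kcnip4, the gene with the widest neuron-like margin and 2 annotated starts. RefSeq windows of 300 bases (250 before to 50 after the start, build GRCm38.p6) existed for 32 of the 46 genes. In capitals are matches, on either strand, to ACAAAG (reverse complement CTTTGT, the core bound by SOX factors) and to CAGATG (reverse complement CATCTG, an E-box of the kind bound by Neurod factors). TATAAA was also searched and is in none of these windows, and no matches overlap. The Kcnj10 window is chr1:172340960-172341259 on the plus strand, the Kcna6 window chr6:126740625-126740924 on the minus strand and the Kcnk13 window chr12:99964249-99964548 on the plus strand. The Kcnip4 windows are chr5:49285610-49285909 (a) and chr5:48599633-48599932 (b), both on the minus strand.
Kcnj10: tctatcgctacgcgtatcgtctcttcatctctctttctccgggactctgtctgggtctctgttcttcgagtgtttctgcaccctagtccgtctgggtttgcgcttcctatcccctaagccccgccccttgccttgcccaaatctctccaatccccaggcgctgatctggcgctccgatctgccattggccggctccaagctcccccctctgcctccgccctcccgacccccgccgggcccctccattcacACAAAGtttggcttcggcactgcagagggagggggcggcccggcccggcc
Kcna6: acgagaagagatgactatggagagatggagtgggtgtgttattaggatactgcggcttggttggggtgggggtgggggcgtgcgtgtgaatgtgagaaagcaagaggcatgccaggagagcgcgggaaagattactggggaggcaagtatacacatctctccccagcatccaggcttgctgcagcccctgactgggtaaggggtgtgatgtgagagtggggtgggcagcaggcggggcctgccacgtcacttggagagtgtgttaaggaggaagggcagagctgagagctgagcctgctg
Kcnk13: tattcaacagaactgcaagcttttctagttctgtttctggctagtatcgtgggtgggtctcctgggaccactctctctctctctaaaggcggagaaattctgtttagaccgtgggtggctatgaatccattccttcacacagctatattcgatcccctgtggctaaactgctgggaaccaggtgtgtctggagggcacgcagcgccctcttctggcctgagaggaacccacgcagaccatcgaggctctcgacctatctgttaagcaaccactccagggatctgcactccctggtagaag
Kcnip4 a: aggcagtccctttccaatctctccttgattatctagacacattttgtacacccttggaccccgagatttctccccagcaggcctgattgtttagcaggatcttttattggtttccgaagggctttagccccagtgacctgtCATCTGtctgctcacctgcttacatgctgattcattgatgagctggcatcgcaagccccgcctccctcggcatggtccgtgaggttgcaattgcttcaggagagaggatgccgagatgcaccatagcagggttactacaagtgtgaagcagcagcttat
Kcnip4 b: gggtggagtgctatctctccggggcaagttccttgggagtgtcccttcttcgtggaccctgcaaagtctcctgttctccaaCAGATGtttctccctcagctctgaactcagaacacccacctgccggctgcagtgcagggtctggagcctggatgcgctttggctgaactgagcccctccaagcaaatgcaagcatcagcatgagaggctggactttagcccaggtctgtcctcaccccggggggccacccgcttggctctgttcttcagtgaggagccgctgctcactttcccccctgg

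The Kcnj10 window holds ACAAAG at the annotated start, the Kcna6 and Kcnk13 windows hold none of the motifs, and both Kcnip4 windows hold the E-box upstream of the start. Over all 32851 windows in the table, 18.7% hold ACAAAG, 17.2% CAGATG and 13.6% TATAAA, against 9, 7 and 3 of the 51 windows of these channel genes. The G and C content was 63.7% for Kcnj10, 58.3% for Kcna6 and 52.7% for Kcnk13, with a median of 52.7% over all windows. A match is a run of letters and not a binding site.

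For some genes the share of each transcript in the summed level differed between classes, as far as the abundance estimator could divide reads between them. Of the 5 Kcnip4 transcripts, the leading one took 85.0% of the summed Kcnip4 level in neuron-like cells and 35.3% in myelin-rich cells, where another took 51.7%. The former was detected in 9 neuron-like and 4 myelin-rich cells, the latter in 5 and 8. For Kcnab2 the leading transcript took 97.0% in neuron-like and 61.1% in myelin-rich cells, and the next was detected in only 2 neuron-like and 3 myelin-rich cells. For Kcnc1 a transcript with 61.0% in neuron-like cells had 19.9% in myelin-rich cells, where the other took 80.1%. By cells detected, that other Kcnc1 transcript led in both classes, with 10 against 6 neuron-like and 8 against 3 myelin-rich cells. Kcnip3 and Kcnip2 kept the same leading transcript in each class, at 98.1% to 100% and 95.4% to 100%. These shares are sums over few cells and depend on how reads common to several transcripts were assigned.

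Myelin-rich cells that also carried the neuronal programme held more of the neuronal channel genes. The 10 such cells detected 4 to 10 of the 13 genes with higher neuron-like means (median 6.5), and the 23 others 0 to 9 (median 3), compared with 4 to 12 (median 9) in neuron-like cells. They also detected more genes in all, with a median of 5932.5 against 5004. The 10 cells were picked by their pan-neuronal score and the 13 genes by their level in neuron-like cells of the same data. A higher count in the 10 cells was thus largely fixed beforehand, and no share of other genes is given beside it. Higher means in the 10 cells were seen for Kcnk1, which is not among the 13 (by 2.61 log2 units), Kcnma1 (2.18), Kcnip2 (2.16), Kcnab1 (2.11) and Kcnip4 (2.08). Kcnj10 and Kcna1 differed less, by 0.28 and 1.12, and Kcna6 and Kcnk13 were lower in the 10 cells, by 1.38 and 0.79. Among the 13 genes the lowest differences were 0.33 for Kcnj3 and -0.15 for Kcnv1. No doublet caller was run, and 2 cells in a capture site cannot be told apart from 1 cell with both programmes. Of the 13 genes with higher neuron-like means, 12 passed again, and Kcnc1 did not, when all libraries with a second programme were left out.

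**Figure D4:**
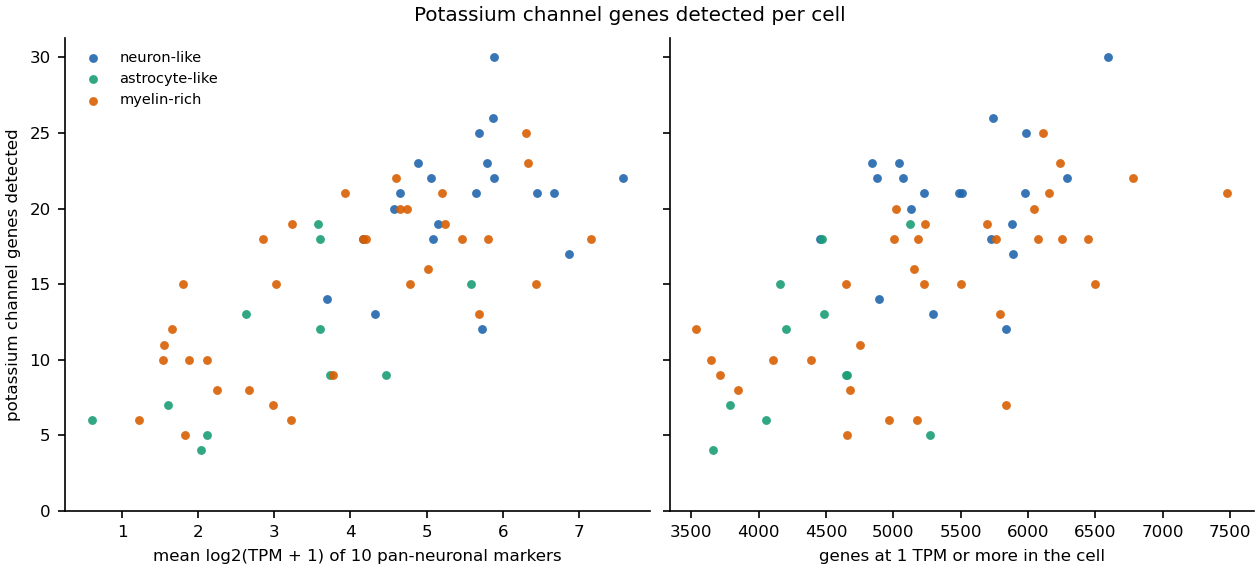
Number of the 46 potassium channel genes detected in each cell (points, coloured by class) against the mean log2(TPM + 1) of 10 pan-neuronal markers (left) and against all genes detected at 1 TPM or more (right). Cells with more neuronal marker RNA detected more channel genes, and the myelin-rich cells spread from 5 to 25 channel genes along both axes.

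Across the 64 cells, the number of channel genes detected ranked with the pan-neuronal score (Spearman rho 0.71) and with the number of genes detected (0.58), but not with estimated reads (-0.07). Within the 33 myelin-rich cells the values were 0.65 and 0.67, and within the 20 neuron-like cells 0.38 and 0.15. For estimated reads they were -0.30 in myelin-rich, -0.18 in neuron-like and 0.23 in the 11 astrocyte-like cells. The part of depth in the number of genes detected was not tested. All these values are descriptions of cells that share their preparation and the total to which TPM are scaled. Between single genes the ranks agreed little. Among the 11 genes detected in at least 50% of cells the 55 pairs had rho between -0.26 and 0.39, with Kcnd2 and Kcnma1 at the upper end.

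Transcripts of Kv1 pores and of their beta subunits were also read side by side, without a test. A Kv1 gene was detected in all 20 neuron-like and all 33 myelin-rich cells, and a beta subunit gene in 18 of the former and 17 of the latter. Joint detection in these 2 classes is therefore that of the beta subunit genes alone. Of 11 astrocyte-like cells, 8 detected a Kv1 gene, 4 a beta subunit gene and 2 both. Kcna1 and Kcna2 were detected together in 11 neuron-like, 3 astrocyte-like and 23 myelin-rich cells. With Kcna1 in 19 of 20 neuron-like and 32 of 33 myelin-rich cells, the overlap in these 2 classes was bound to be large. Kcna2 alone had medians of 2.15, 9.63 and 11.8 TPM in the 3 classes and was not called, and its highest level, 188 TPM, was again in cell 22. That cell also held the highest Kcnma1, Kcnmb4 (1215 TPM) and Kcnj3 (160 TPM) of all cells. Its astrocyte list stood at 15599 TPM, the myelin list at 796 TPM and the pan-neuronal list at 2190 TPM. It was not among the libraries with a second programme.

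Genes that work with these channels were read from a list of 21 partners, of which 17 were detected in at least 6 cells. Of these 17, 3 had higher neuron-like means and 4 lower astrocyte-like means, against 15.0% and 16.0% of other genes. Higher astrocyte-like, higher myelin-rich and lower myelin-rich means were called for 1 each (other genes 6.29%, 8.10% and 2.33%). With so few genes these counts cannot be read as particular to channel partners. Dpp6, an auxiliary subunit of Kv4 channels, Lgi1, a secreted protein that acts on Kv1 channels and synapses, and the scaffold Dlg4 had higher neuron-like means. Lgi1 was detected in 20 of 20 neuron-like cells at a median of 336 TPM, against medians of 9.73 TPM in astrocyte-like and 10.4 TPM in myelin-rich cells. Dpp6 was detected in 19, 5 and 17 cells of the classes. Astrocyte-like means were lower for Abcc8, the Lgi1 receptor Adam22, the axonal anchor Ank3 and the scaffold Dlg2, and higher for the water channel Aqp4, a marker used to name that class, which was also lower in myelin-rich cells. The scaffold Dlg1 had a higher mean in myelin-rich cells, with a median of 44.6 TPM against 1.42 TPM in neuron-like cells. Of the hyperpolarisation-activated channel genes, Hcn2 was detected in 3 cells, Hcn3 in 7 and Hcn4 in 0.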

How the data were processed

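Polyadenylated RNA of single sorted cells was, per the labels' protocols, amplified on a Fluidigm C1 chip and turned into Nextera XT libraries. The authors deposited 1 table per cell with 30970 RefSeq transcripts, and per the submitters' processing notes RSEM, Bowtie2 and the mouse build mm9 were used, with versions not given in the sources used here. Although the header names expected counts, the totals per cell lie between 999999 and 1000001. The authors' values were therefore taken to be TPM, to which no count model applies.

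TPM were summed per symbol. The 1037 transcripts without a symbol (0.172% to 0.735% of TPM) were dropped. Another 48 symbols garbled in the tables were restored by accession, for 23313 genes. Depth was estimated from the TPM value at which single reads pile up, using RefSeq transcript lengths of GRCm38, so the read numbers are approximate. Pearson correlations between cells were 0.399 to 0.674 (median 0.537), and no library was taken for a repeat.

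Classes came from Ward clustering into 3 clusters of the cells in 10 principal components, computed on the log scale from 1000 highly variable genes after removal of every Kcn gene. A cluster was named by the marker list with the largest mean difference, given 3 or more markers present in 50% of the cluster. A library held a second programme when its score for another class's list reached the 25th percentile of that class. The call of a difference (1 unit between class means, pseudocount 1) was tested on simulated data. There 199 of 200 genes shifted by 4 log2 units were called, and so were 319 of 10917 unshifted genes. Most margins reported here are smaller than that shift, so that result does not cover calls of their size. No doublet caller was run. Limits for shares are Clopper-Pearson (95%) and reflect counting error alone.

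The genes and lists were chosen with earlier results of these data known. Named were the genes called in a class (up to 12 per class and direction), the 10 detected in most cells, those detected in exactly 6 or 5 cells, up to 10 at 0 everywhere and the called partners. Other genes named, in pairs of subunits, in the split of the myelin-rich class, in the transcript shares and in cell 22, were chosen after their values were seen. A few genes that these rules would name are not reported here. Alternatives changed the detection threshold, the pseudocount, the filter, the classes, the depth and the difference required, and each cell was left out in turn. Python 3.11.15, numpy 2.4.6, pandas 2.3.3, scipy 1.17.1 and matplotlib 3.10.9 were used.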

Additional observations from a re-analysis of the deposited data

How the results depend on the processing

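The counts of genes called in each direction were 13 higher and 1 lower for neuron-like, 1 and 5 for astrocyte-like, and 3 and 1 for myelin-rich cells. Shares of other genes are given above for this main setting alone. A change in the counts below therefore cannot be told apart from a shift of all genes. With a pseudocount of 0.1 the counts became 20 and 2 for neuron-like cells and 2 and 14 for astrocyte-like cells, with 3 lower in myelin-rich cells. With a pseudocount of 10, 6 were higher in neuron-like cells, 0 higher and 1 lower in astrocyte-like cells, and 0 higher and 0 lower in myelin-rich cells. A required difference of 2 left 7 higher in neuron-like cells, 0 higher and 1 lower in astrocyte-like cells, and 1 higher and 0 lower in myelin-rich cells. A difference of 25 points in the share of cells left 0 lower in neuron-like, 0 higher in astrocyte-like, and 1 higher and 0 lower in myelin-rich cells. A filter of 3 cells and no filter each gave 2 higher in astrocyte-like cells. Classes from 500 genes gave 2 lower in neuron-like and 2 lower in myelin-rich cells. Classes from 2000 genes gave 2 higher and 8 lower in astrocyte-like cells, and 1 higher and 2 lower in myelin-rich cells. Classes by marker score gave 18 higher in neuron-like cells, 0 higher and 3 lower in astrocyte-like cells, and 2 higher in myelin-rich cells. Without libraries that hold a second programme, 2 were higher in astrocyte-like cells and 3 lower in myelin-rich cells.

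The deeper libraries, with 1 astrocyte-like cell, gave 12 higher in astrocyte-like cells, and 1 higher and 6 lower in myelin-rich cells. There 25 genes were detected in at least 6 cells, and the astrocyte-like cell detected 19 of the 46 genes at a summed 2976 TPM. The margin turned below 0 there for Kcnma1 (-3.65), Kcnj3 (-5.12) and Kcnab1 (-0.47) as higher in neuron-like cells, for Kcnab1 as lower in astrocyte-like cells (-3.01) and for Kcnj10 as higher in myelin-rich cells (-0.84). The shallower libraries gave 2 lower in neuron-like cells, and 2 higher and 9 lower in astrocyte-like cells. At 10 TPM or more the median number of genes per cell was 15 in neuron-like and 9 in myelin-rich cells. The cause of these changes was not tested.

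Leaving out each cell in turn, the counts ranged from 11 to 16 higher in neuron-like cells, 1 to 2 higher and 4 to 7 lower in astrocyte-like cells, and 2 to 3 higher and 0 to 2 lower in myelin-rich cells. The Kcnd3 call ended without cell 8, 22, 56, 57, 61 or 67 and the Kcnq3 call without cell 8 or 55. No paired analysis was possible because the labels give 1 group with no replicate numbers shared between groups.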
